A study of Saccharomyces cerevisiae with 83 samples.

Results

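Plasmid copies of the nuclear genes for the respiratory chain and the ATP synthase of budding yeast were followed through a growth competition. The set held 38 systematic names: 12 of the ATP synthase, 9 of cytochrome c oxidase, 8 of the cytochrome bc1 complex, 4 of succinate dehydrogenase, 2 cytochromes c and 3 NADH dehydrogenases. A name was kept where it had a row in both count tables, which 33 of the 38 had, among 4871 names in each table. The ATP synthase kept 9 of its 12 names, cytochrome c oxidase 8 of 9 and the bc1 complex 7 of 8, and the other groups kept every name. ATP1 and ATP2 (the catalytic head of the ATP synthase), ATP5 (its peripheral stalk), COX4 and RIP1 (the Rieske iron-sulfur protein) had no row and were not analysed here. By their systematic names, 7 of the 33 genes lie on chromosome IV, 2 on VII, 4 on XII and 1, CYT1, on XV.

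In mitochondria, NADH dehydrogenases and succinate dehydrogenase pass electrons to ubiquinone, the bc1 complex passes them on to cytochrome c, and cytochrome c oxidase passes them to oxygen. The bc1 complex and the oxidase pump protons across the inner membrane, and the ATP synthase uses the return flow of protons to make ATP. Budding yeast has no proton-pumping complex I and uses single-protein NADH dehydrogenases in its place. It ferments on glucose and can live without respiration, and the core subunits of the bc1 complex, the oxidase and the ATP synthase's membrane part are partly coded by mitochondrial DNA, so these complexes are assembled from proteins of both genomes.

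Pools after 10 or 5 generations of growth were each compared with the same strain's pool at generation 0. All strains were haploids of the YPS1009 background, a North American strain, and every cell carried a centromeric plasmid from a library in which each plasmid holds 1 gene and a barcode, so that a cell has the plasmid's copy beside the chromosomal one. The strains were euploid or disomic for 1 chromosome (IV, VII, XII or XV), and some had the RNA-binding protein SSD1 and some lacked it. Strain numbers are not tied to a karyotype or an SSD1 state in the labels, so strains are given by number only. All pools, at every generation and in every strain, were grown at 30 °C in medium without histidine that held nourseothricin (100 mg per L), which keeps the amplified chromosomes, and G418 (200 mg per L), which keeps the plasmids. Batch 1 had AGY1611, AGY1612, AGY1613 and AGY1614 at generations 10 and 0, with replicates A to D from 2 transformations. In batch 2, with 3 replicates from 3 transformations, all of its strains but AGY1861 were sampled at generation 10 as well as 0. AGY1861 was sampled at generation 5 and 0, and AGY1611, AGY1613 and AGY1860 had a generation 5 sample too. AGY1859, AGY1862 and AGY1863 had none. The 83 libraries came from 37 cultures. What was measured is the share of a plasmid's barcode in the pool, given as CPM (counts per 1000000 after scaling), so a lower value can come from fewer cells with the plasmid or from fewer plasmid copies per cell, which cannot be told apart. Neither RNA nor protein of the genes was measured.

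Libraries of batch 1 held 457053 to 2993246 counts at generation 10, against 3237303 to 8351355 at generation 0. In batch 2 the totals were 1298424 to 7559499 (generation 0), 452054 to 5409233 (generation 5) and 561486 to 3506174 (generation 10). Replicates of batch 1 were not equally distinct. Across 4547 names, the generation 10 changes of cultures A and B of a strain, or of C and D, had a mean Spearman correlation of 0.936 (8 pairs), against 0.486 for A or B with C or D (16 pairs) and 0.421 within strains of batch 2 (18 pairs). In AGY1611 and AGY1613, cultures A and B also correlated with replicate 2 of batch 2, and C and D with replicate 3, at a mean of 0.941 (8 pairs), so the batches are not independent for those strains. Results of batch 1 are therefore given also after adding up the counts of A with B and of C with D, which leaves 2 values a group. Labels do not state which letters came from which transformation. P-values measure the spread between these cultures.

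The plasmids began at unequal levels. In the 16 generation 0 libraries of batch 1, ATP15 was the most abundant of the 33 genes, with 1202 to 1792 CPM (5149 to 14495 counts), and ATP14 followed with 630.0 to 821 CPM. CYT1, with 3.12 to 7.03 CPM, and COX6, with 6.20 to 8.83 CPM, were the scarcest, at 13 to 56 and 29 to 61 counts per library. The median over all names was 184 CPM. COX7, a small oxidase subunit, had 345 to 390 CPM at generation 0 of batch 1 but a single count in all 51 libraries of batch 2, so 32 of the genes could be tested there. The 33 genes together took 0.922% to 1.35% of the counts at generation 10 of batch 1, against 1.04% to 1.14% at generation 0. In batch 2 they took 1.11% to 1.44% at generation 10, against 1.05% to 1.15% at generation 0. At generation 5 they took 0.507% to 1.32%, the lowest in AGY1861 (0.606%, 0.507% and 0.806%).

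After 10 generations the plasmids with SDH1 and COX12 had lost most of their share. Those with ATP14, ATP15, ATP16 and NDE2 had gained a smaller amount in most strain comparisons. In batch 1 no ATP15 gain passed the test used below with cultures summed in pairs. The scarce CYT1 was lower too, but its few counts limit the size of its fall. Against a floor of 3 counts per library, it was at least 1.41-fold to 2.77-fold where none were left. In batch 1, SDH1, COX12 and CYT1 were lower in each of the 4 strains by edgeR's quasi-likelihood test (adjusted p under 0.05 over all names, here called), which is 3 of 33 genes, where 9.19% of all names tested were lower in every strain. ATP14, ATP15, ATP16, COX13 and NDE2 were higher in each of the 4 strains, 5 of 33 genes, where 4.4% of all names were. ATP4, COX5A, COX8 and SDH4 were called in no strain (background 17.5%), and ATP3, COX7 and COX9 were called in both directions in different strains (background 7.28%). In batch 2, SDH1 and COX12 were lower in all 6 strains with generation 10 (background 3.06%) and ATP15 was higher in all 6 (background 0.131%). There, 9 of 32 genes were called in no strain (background 55.3%), and no gene was called in both directions (background 0.524%).

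Within strains of batch 1, 19, 17, 17 and 21 of 33 genes were called in AGY1611, AGY1612, AGY1613 and AGY1614, where 47.8%, 43.1%, 40.8% and 53.1% of all names were. Lower calls numbered 5, 6, 7 and 9 (background 23.8%, 25.9%, 21.3% and 28.3%), and higher calls 14, 11, 10 and 12 (background 24.0%, 17.1%, 19.5% and 24.8%). Over these strains 20.5% of the comparisons of the genes were lower and 35.6% higher, against 24.8% and 21.4% for all names. Scaling by library size alone gave 25.0% lower and 24.2% higher, against 30.8% and 12.8% for all names. In AGY1614 it gave 13 lower and 5 higher genes, where 42.9% of all names were lower and 9.27% higher. In batch 2, 10, 6, 8, 11, 15 and 11 of 32 genes were called in AGY1611, AGY1613, AGY1859, AGY1860, AGY1862 and AGY1863, where 18.9%, 11.4%, 14.5%, 21.0%, 18.2% and 17.5% of all names were. Over those strains 13.5% of the comparisons were lower and 18.2% higher, against 11.2% and 5.69% for all names. With library size alone 14.1% were lower and 11.5% higher, against 12.5% and 3.20%. The median log2 change of the genes lay between 0.09 and 0.34 in batch 1, against 0.03 to 0.09 for all names, and between -0.06 and 0.34 in batch 2, against 0.01 to 0.04. Library size alone put the medians of batch 1 at 0.12, 0.24, -0.08 and -0.23 in AGY1611, AGY1612, AGY1613 and AGY1614, against -0.13, -0.01, -0.11 and -0.49 for all names. The direction turned in AGY1613 and AGY1614. With cultures summed in pairs, 8, 6, 5 and 11 genes were called in the strains of batch 1, where 12.7%, 17.1%, 9.69% and 26.6% of all names were. COX12, SDH1, ATP14 and NDE2 were then called in all 4 strains, ATP16 in 3, COX13 in 2, CYT1 in 1 and ATP15 in none. With library size alone ATP14 and NDE2 were called higher in all 4 strains of batch 1, ATP15 and ATP16 in 3 and COX13 in 2. ATP15 was then called in 1 of the 6 strains of batch 2. In batch 2, leaving out replicate 2 gave 3 calls in AGY1611, replicate 2 or 3 gave 2 in AGY1613, replicate 3 gave 3 in AGY1859 and replicate 1 gave 5 in AGY1860. Leaving out replicate 1 or 2 gave 9 or 7 calls in AGY1862 and 4 or 6 in AGY1863.

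**Figure D1:**
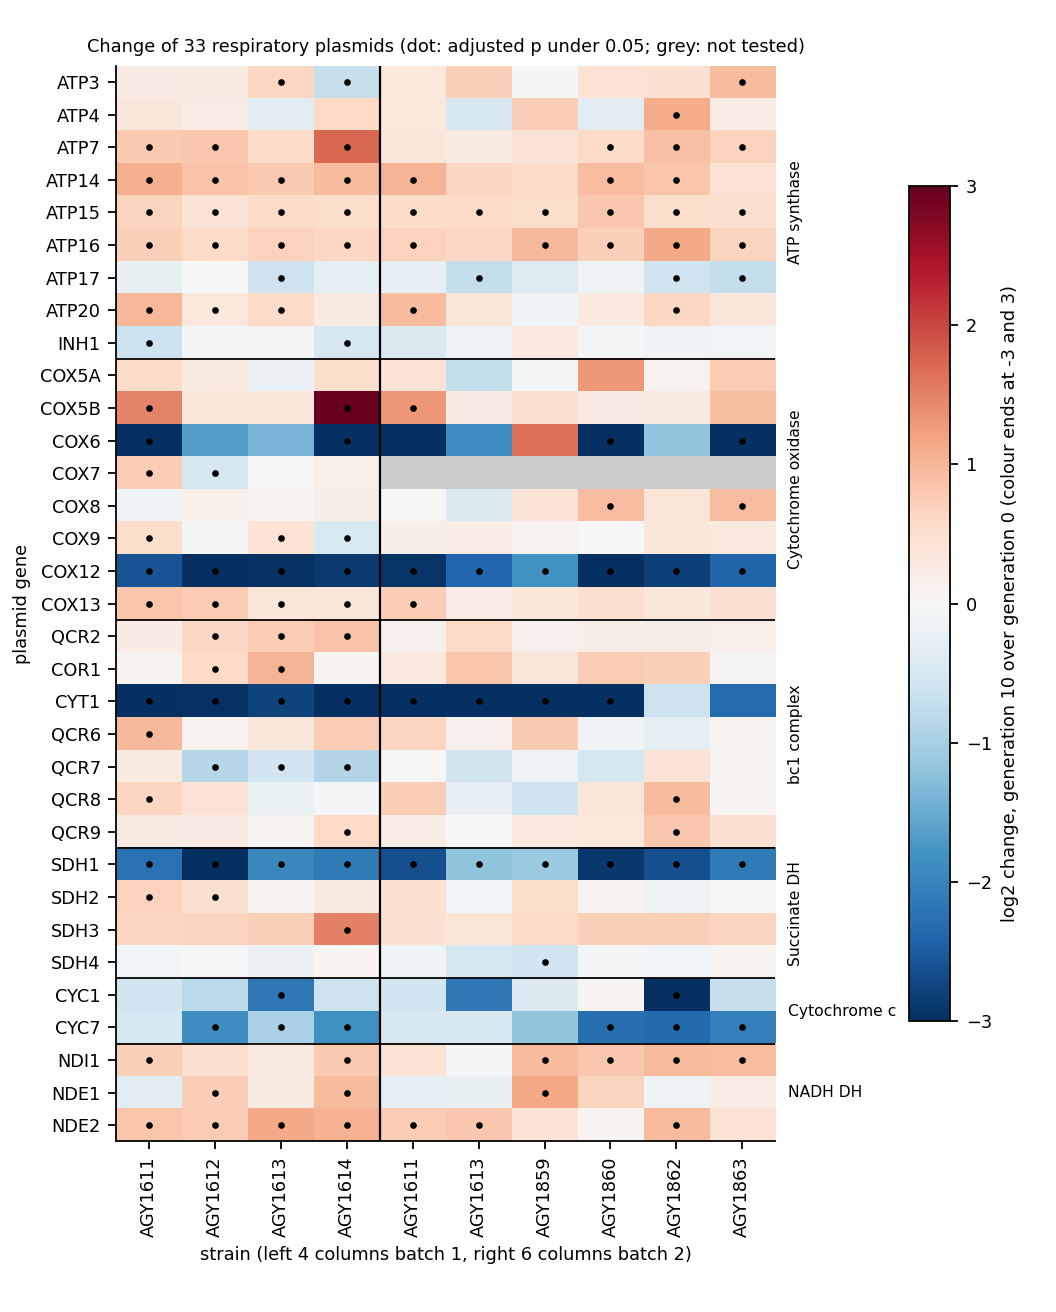
The log2 change from generation 0 to generation 10 is shown by colour for the 33 genes, in rows by complex, and the 10 strain comparisons of both batches, in columns. A dot marks an adjusted p under 0.05 and grey marks COX7, not tested in batch 2. The SDH1 and COX12 rows are blue with a dot in all 10 columns, and ATP15 is red with a dot in all 10.

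In the ATP synthase, plasmids for 3 subunits gained share most regularly: ATP14 (YLR295C), the h subunit of the peripheral stalk, and ATP15 (YPL271W) and ATP16 (YDL004W), the epsilon and delta subunits of the central stalk. Of the 9 measured genes, 6, 5, 6 and 6 were called in AGY1611, AGY1612, AGY1613 and AGY1614 of batch 1 (47.8%, 43.1%, 40.8% and 53.1% of all names), of which 1, 0, 1 and 2 were lower. In batch 2, 4, 2, 2, 4, 7 and 5 were called in AGY1611, AGY1613, AGY1859, AGY1860, AGY1862 and AGY1863 (18.9%, 11.4%, 14.5%, 21.0%, 18.2% and 17.5% of all names), and the lower ones were ATP17 in AGY1613, AGY1862 and AGY1863.

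In batch 1, ATP14 had 1741, 1644, 1179 and 1277 in AGY1611, 1339, 1271, 1097 and 1119.9 in AGY1612, 1372, 1303, 1223 and 1127 in AGY1613, and 1116, 1159, 1454 and 1442 in AGY1614 CPM at generation 10, against values between 630.0 and 821 CPM (median 686) in the 16 generation 0 libraries. In batch 2, ATP14 had 864, 1789.6 and 1153 in AGY1611, 693, 1242 and 1075 in AGY1613, 1289, 819 and 1167 in AGY1859, 1796, 898 and 1349 in AGY1860, 1431, 862 and 1264 in AGY1862, and 1063, 990.5 and 909 in AGY1863 CPM at generation 10, against values between 613 and 874 CPM (median 663) in the 21 generation 0 libraries. No generation 10 library of batch 1 lay within the generation 0 range of its strain, and in batch 2 only AGY1859 overlapped, where replicate 2 was below the highest generation 0 library. The log2 change averaged 0.92 ± 0.12 over the 4 strains of batch 1 (SD, 1.89-fold), from 0.79 to 1.08, with edgeR adjusted p from 6.04e-08 to 8.59e-06. In batch 2 ATP14 rose in AGY1611 (1.01, adjusted p = 0.00156), AGY1860 (0.93, adjusted p = 0.00286) and AGY1862 (0.83, adjusted p = 0.00991). The values were 0.65 in AGY1613 (adjusted p = 0.0615), 0.58 in AGY1859 (0.0886) and 0.44 in AGY1863 (0.216). The AGY1859 value was called with the culture as a block (0.57, adjusted p = 0.0332). Leaving out replicate 2 ended the call in AGY1611 (adjusted p = 0.112), replicate 1 in AGY1860 (0.0763), and replicate 1 or 3 in AGY1862 (0.0705 and 0.0652). Fitted on its own libraries, the AGY1862 value had an adjusted p of 0.0784.

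In batch 1, ATP15 had 2978, 2744, 2164 and 2152 in AGY1611, 2017, 2511, 2266 and 2193 in AGY1612, 2435, 2796, 2309 and 2360.5 in AGY1613, and 2025, 2469, 2578 and 2105 in AGY1614 CPM at generation 10, against values between 1202 and 1792 CPM (median 1669) in the 16 generation 0 libraries. In batch 2, ATP15 had 2306, 2708 and 1912 in AGY1611, 2226, 2489 and 2317 in AGY1613, 2236, 2015 and 3171 in AGY1859, 3082, 2655 and 2966 in AGY1860, 2441, 2010.2 and 2392 in AGY1862, and 2589, 2541 and 2762 in AGY1863 CPM at generation 10, against values between 1423 and 1929 CPM (median 1633) in the 21 generation 0 libraries. In all 10 strain comparisons, which hold AGY1611 and AGY1613 in both batches, every generation 10 library lay above every generation 0 library of the same strain. The rises were modest, at 0.55 ± 0.10 over the 4 strains of batch 1 (log2, SD, 1.46-fold) and 0.41 to 0.66 in single strains, with edgeR adjusted p from 0.000155 to 0.0106. In batch 2 they ran from 0.49 to 0.81, the highest in AGY1860, with adjusted p from 0.000168 to 0.0285. Library size alone put ATP15 in AGY1614 at 0.01 (adjusted p = 0.95) and ended calls of batch 2. AGY1860 alone kept the call there (others 0.0833 to 0.139). Fits to a comparison's own libraries ended the call in AGY1614 (0.109) and in AGY1611, AGY1859 and AGY1862 of batch 2 (0.0535, 0.261 and 0.127). No strain of batch 1 kept the call with cultures summed in pairs (adjusted p from 0.0586 to 0.203). Leaving out 1 culture ended the batch 2 call in every strain except AGY1860: replicate 2 in AGY1611 (adjusted p = 0.17), 2 or 3 in AGY1613 (0.107 and 0.141), 3 in AGY1859 (0.513, with a log2 change of 0.26), and any of the 3 in AGY1862 (0.0504 to 0.0826) and AGY1863 (0.0689 to 0.126).

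In batch 1, ATP16 had 764, 712, 785 and 626 in AGY1611, 797, 758, 604 and 577 in AGY1612, 702, 728, 810.3 and 692 in AGY1613, and 605, 711, 818 and 621 in AGY1614 CPM at generation 10, against values between 418 and 479 CPM (median 448) in the 16 generation 0 libraries. In batch 2, ATP16 had 708, 776 and 625 in AGY1611, 698, 649 and 668 in AGY1613, 1376, 580.5 and 1140.2 in AGY1859, 543, 746 and 949 in AGY1860, 683, 1535 and 768 in AGY1862, and 892, 859 and 667 in AGY1863 CPM at generation 10, against values between 414 and 628 CPM (median 467) in the 21 generation 0 libraries. Every generation 10 library lay above the generation 0 libraries of its strain except replicate 2 of AGY1859, and replicate 2 of AGY1862 and replicates 1 and 3 of AGY1859 were the highest. ATP16 rose by 0.65 ± 0.07 on the log2 scale over the 4 strains of batch 1 (SD, 1.57-fold), with edgeR adjusted p from 5.88e-06 to 0.000128. It rose in 5 of the 6 strains of batch 2, by 0.66 to 1.14, and was at 0.61 in AGY1613 (adjusted p = 0.0661). The batch 1 call was lost in AGY1612 with cultures summed in pairs (adjusted p = 0.069). Library size alone put AGY1614 at 0.11 (adjusted p = 0.425) and ended the AGY1611 call of batch 2 (0.0655). Fits to a comparison's own libraries ended those in AGY1859, AGY1860 and AGY1862 (0.161, 0.0594 and 0.096). In batch 2, each of the 5 calls was lost without at least 1 of the strain's cultures (adjusted p from 0.056 to 0.197).

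ATP7 (YKL016C), the d subunit of the peripheral stalk, had the highest mean change of the complex in batch 1. In batch 1, ATP7 had 404, 388, 474 and 389.8 in AGY1611, 415, 485, 428 and 384 in AGY1612, 390.0, 363, 386 and 372 in AGY1613, and 1048, 1699, 445 and 395 in AGY1614 CPM at generation 10, against values between 221 and 314 CPM (median 251) in the 16 generation 0 libraries. In batch 2, ATP7 had 288, 433 and 336 in AGY1611, 361, 311 and 354 in AGY1613, 389, 257 and 431 in AGY1859, 572, 394 and 346 in AGY1860, 604, 527 and 469 in AGY1862, and 513, 485 and 477 in AGY1863 CPM at generation 10, against values between 260.0 and 349 CPM (median 286) in the 21 generation 0 libraries. Cultures A and B of AGY1614 stood far above the other libraries of that batch, and AGY1859 was the only strain in which the groups overlapped. The change in AGY1614 was 1.73 (log2, SE 0.25, 3.31-fold, edgeR adjusted p = 1.62e-06) and was 0.79 and 0.80 in AGY1611 and AGY1612 (adjusted p = 0.0102 and 0.00956). Those last calls ended with cultures summed in pairs (adjusted p = 0.186 and 0.184), and that in AGY1612 also without replicate B (0.0511). In AGY1613 ATP7 was at 0.56 (adjusted p = 0.0696). ATP7 rose in AGY1860, AGY1862 and AGY1863 of batch 2, by 0.58, 0.88 and 0.70 (adjusted p = 0.0206, 0.000736 and 0.00666). The AGY1860 call ended with library size alone (0.0788), when fitted on its own libraries (0.101) and without replicate 1 (0.336), and the AGY1863 call without replicate 1 (0.0606).

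INH1 (YDL181W), which codes for the protein that inhibits ATP hydrolysis by the enzyme, had the lowest mean change of the complex in batch 1. In batch 1, INH1 had 189, 186, 288 and 244 in AGY1611, 363, 364, 354 and 361 in AGY1612, 412, 437, 372 and 319 in AGY1613, and 257, 194, 309 and 249.9 in AGY1614 CPM at generation 10, against values between 313 and 386 CPM (median 371) in the 16 generation 0 libraries. In batch 2, INH1 had 398, 191 and 263 in AGY1611, 319, 375 and 379 in AGY1613, 837, 306 and 348 in AGY1859, 359.9, 389.6 and 400.3 in AGY1860, 300.0, 460.2 and 371 in AGY1862, and 506, 236 and 386 in AGY1863 CPM at generation 10, against values between 369 and 433 CPM (median 397) in the 21 generation 0 libraries. It was below its generation 0 range in all 4 cultures of AGY1611 and AGY1614, and it overlapped that range in AGY1612 and AGY1613. The change was -0.65 in AGY1611 (log2, SE 0.13, edgeR adjusted p = 0.00019) and -0.51 in AGY1614 (SE 0.13, adjusted p = 0.00217), against -0.04 in AGY1612 and 0.04 in AGY1613. With cultures summed in pairs neither call was kept (adjusted p = 0.09 and 0.15), and in batch 2 INH1 was called in no strain.

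The other ATP synthase genes moved in single strains. ATP20, whose g subunit takes part in forming dimers of the enzyme, rose most in AGY1611, by 0.99 in batch 1 (log2, edgeR adjusted p = 3.83e-07) and 0.94 in batch 2 (adjusted p = 0.00156), and in AGY1611 of batch 1 it kept the call with cultures summed in pairs (0.0168). Its other calls, in AGY1612, AGY1613 and AGY1862, were between 0.32 and 0.63 and ended with cultures summed in pairs (0.377 and 0.13) or without any 1 culture (0.0634 to 0.103 in AGY1612 and 0.0743 to 0.185 in AGY1862). Library size alone also ended those in AGY1612 and AGY1862 (0.0981 and 0.107), as did a count minimum of 50 at generation 0 in AGY1612 (0.0509) and a fit to its own libraries in AGY1862 (0.0528). ATP17, the f subunit, fell in AGY1613 in both batches, with log2 changes of -0.63 (adjusted p = 0.0118) and -0.72 (adjusted p = 0.0153). The batches are not independent for AGY1611 and AGY1613, so these results of ATP20 and ATP17 are not separate replications. The batch 1 call of ATP17 ended with cultures summed in pairs (adjusted p = 0.28) and without culture A or B (0.0882 and 0.0887). Its batch 2 call in AGY1613 ended without replicate 1 or 2 (0.115 and 0.189). The ATP17 calls in AGY1862 and AGY1863, at -0.60 and -0.71, ended without replicate 1 or 3 (0.103 and 0.234) and without replicate 1 or 2 (0.115 and 0.0733). Both also ended when fitted on their own libraries (0.145 and 0.0755). ATP3, the gamma subunit that turns within the catalytic head, had 137, 117, 157 and 182 CPM at generation 10 of AGY1614, against 213, 225, 233 and 271 CPM at generation 0. All 4 cultures were below their generation 0 libraries, a log2 change of -0.68 (SE 0.15, adjusted p = 0.000301), while AGY1613 had 0.63 (SE 0.14, adjusted p = 0.000795). Both ended with cultures summed in pairs (adjusted p = 0.0625 and 0.131). In AGY1863 of batch 2 ATP3 rose by 0.95 (adjusted p = 0.0222), and without replicate 1 it was at 0.28 (adjusted p = 0.633). Fitted on its own libraries its adjusted p was 0.242. ATP4, the b subunit of the peripheral stalk, was called only in AGY1862 of batch 2 (1.12, adjusted p = 0.037), and without replicate 2 its change there was -0.04 (adjusted p = 0.97). Library size alone (0.0925) and a fit to its own libraries (0.379) ended that call too.

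**Figure D2:**
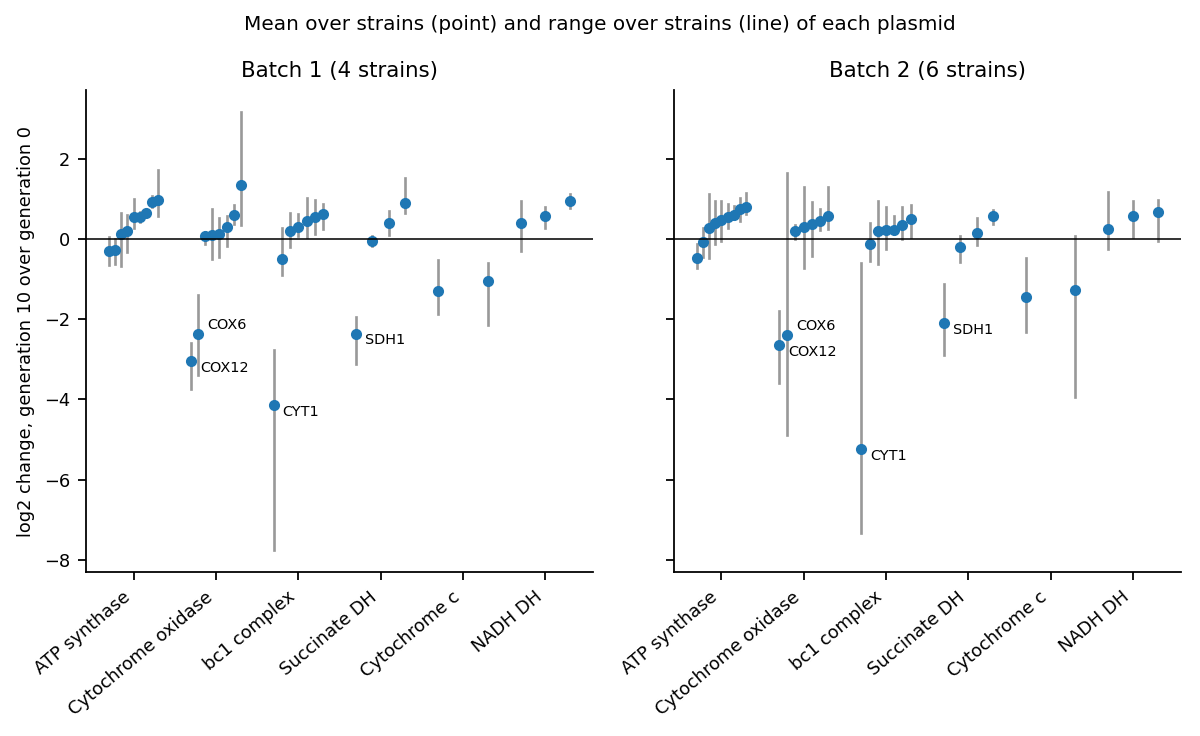
The mean log2 change from generation 0 to generation 10 over the strains of a batch is plotted as a point for each gene, with a line for the range over strains, for batch 1 (4 strains) and batch 2 (6 strains). SDH1 averaged -2.36 and -2.10 and COX12 -3.05 and -2.65, while the other measured succinate dehydrogenase genes lay within 1 of 0 except SDH3 of AGY1614.

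Of the 4 succinate dehydrogenase genes, SDH1 (YKL148C), the flavoprotein subunit that oxidises succinate, lost share in every strain, while the other 3 genes had 1 lower call among them, SDH4 in AGY1859. Batch 1 had 2, 2, 1 and 2 calls among 4 genes in AGY1611, AGY1612, AGY1613 and AGY1614 (47.8%, 43.1%, 40.8% and 53.1% of all names). Batch 2 had 1, 1, 2, 1, 1 and 1 in AGY1611, AGY1613, AGY1859, AGY1860, AGY1862 and AGY1863 (18.9%, 11.4%, 14.5%, 21.0%, 18.2% and 17.5% of all names). In batch 1, SDH1 had 58.0, 49.9, 41.9 and 78.8 in AGY1611, 17.5, 21.4, 31.9 and 41.2 in AGY1612, 73.4, 55.2, 56.9 and 76.5 in AGY1613, and 64.6, 46.2, 54.4 and 60.5 in AGY1614 CPM at generation 10, against values between 232 and 299 CPM (median 251) in the 16 generation 0 libraries. In batch 2, SDH1 had 46.5, 35.2 and 43.0 in AGY1611, 133, 111 and 89.4 in AGY1613, 109.8, 78.5 and 184 in AGY1859, 29.0, 28.0 and 49.1 in AGY1860, 25.4, 32.9 and 64.6 in AGY1862, and 93.7, 68.0 and 17.8 in AGY1863 CPM at generation 10, against values between 238 and 277 CPM (median 258) in the 21 generation 0 libraries. Every generation 10 library was below every generation 0 library, with AGY1612 lowest in batch 1 and AGY1613 and AGY1859 least reduced in batch 2. The log2 change averaged -2.36 ± 0.53 over the strains of batch 1 (SD, n = 4, 5.13-fold lower), with edgeR adjusted p from 8.71e-13 to 7.4e-09. It averaged -2.10 ± 0.78 over those of batch 2 (SD, n = 6 strains, 4.29-fold lower), with adjusted p from 5.77e-08 to 0.0221. All 4 calls of batch 1 were kept with cultures summed in pairs (adjusted p from 5.85e-05 to 0.00235). In batch 2 the AGY1613 call was lost without replicate 1, 2 or 3 (adjusted p = 0.0523, 0.126 and 0.182), and the AGY1859 call without replicate 1 or 2 (0.139 and 0.178). That call also ended when fitted on its own libraries (-1.12, adjusted p = 0.111).

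SDH3 (YKL141W) codes for a membrane anchor subunit of the enzyme and had the highest mean of the complex. In batch 1, SDH3 had 241, 263, 410.4 and 394 in AGY1611, 314, 288, 350.5 and 333 in AGY1612, 486, 473, 219.5 and 218 in AGY1613, and 211, 207, 1159 and 771 in AGY1614 CPM at generation 10, against values between 199 and 219 CPM (median 208) in the 16 generation 0 libraries. In batch 2, SDH3 had 267, 255 and 342 in AGY1611, 249.9, 400.1 and 179 in AGY1613, 513, 372 and 214 in AGY1859, 298, 576 and 277 in AGY1860, 332, 356 and 353 in AGY1862, and 321, 405 and 302 in AGY1863 CPM at generation 10, against values between 191 and 303 CPM (median 217) in the 21 generation 0 libraries. In AGY1614 cultures C and D were high while A and B were at the generation 0 level, and in AGY1613 A and B were high and C and D were not. The only call was in AGY1614, at 1.52 (log2, SE 0.35, edgeR adjusted p = 0.000506, and 0.0435 with cultures summed in pairs). The other 3 strains of batch 1 had 0.64 to 0.71 (adjusted p from 0.0922 to 0.122). In batch 2 the changes ran from 0.36 to 0.71 with adjusted p from 0.0588 to 0.44, and with the culture as a block SDH3 was called in AGY1860 (0.61, adjusted p = 0.0323) and AGY1863 (0.67, adjusted p = 0.0225).

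SDH2, the iron-sulfur subunit, rose in AGY1611 and AGY1612 of batch 1, by 0.69 and 0.49 (log2, edgeR adjusted p = 0.00123 and 0.0169), and both calls ended with cultures summed in pairs (0.0698 and 0.178). The AGY1612 call also ended without culture A (0.0525). SDH4, the other membrane anchor, was within 0.19 of 0 in batch 1, and its single call was in AGY1859 of batch 2 (-0.57, adjusted p = 0.0387), lost without replicate 2 (0.165) or 3 (0.389), when fitted on its own libraries (0.283) and with at least 50 counts required at generation 0 (0.0525).

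**Figure D3:**
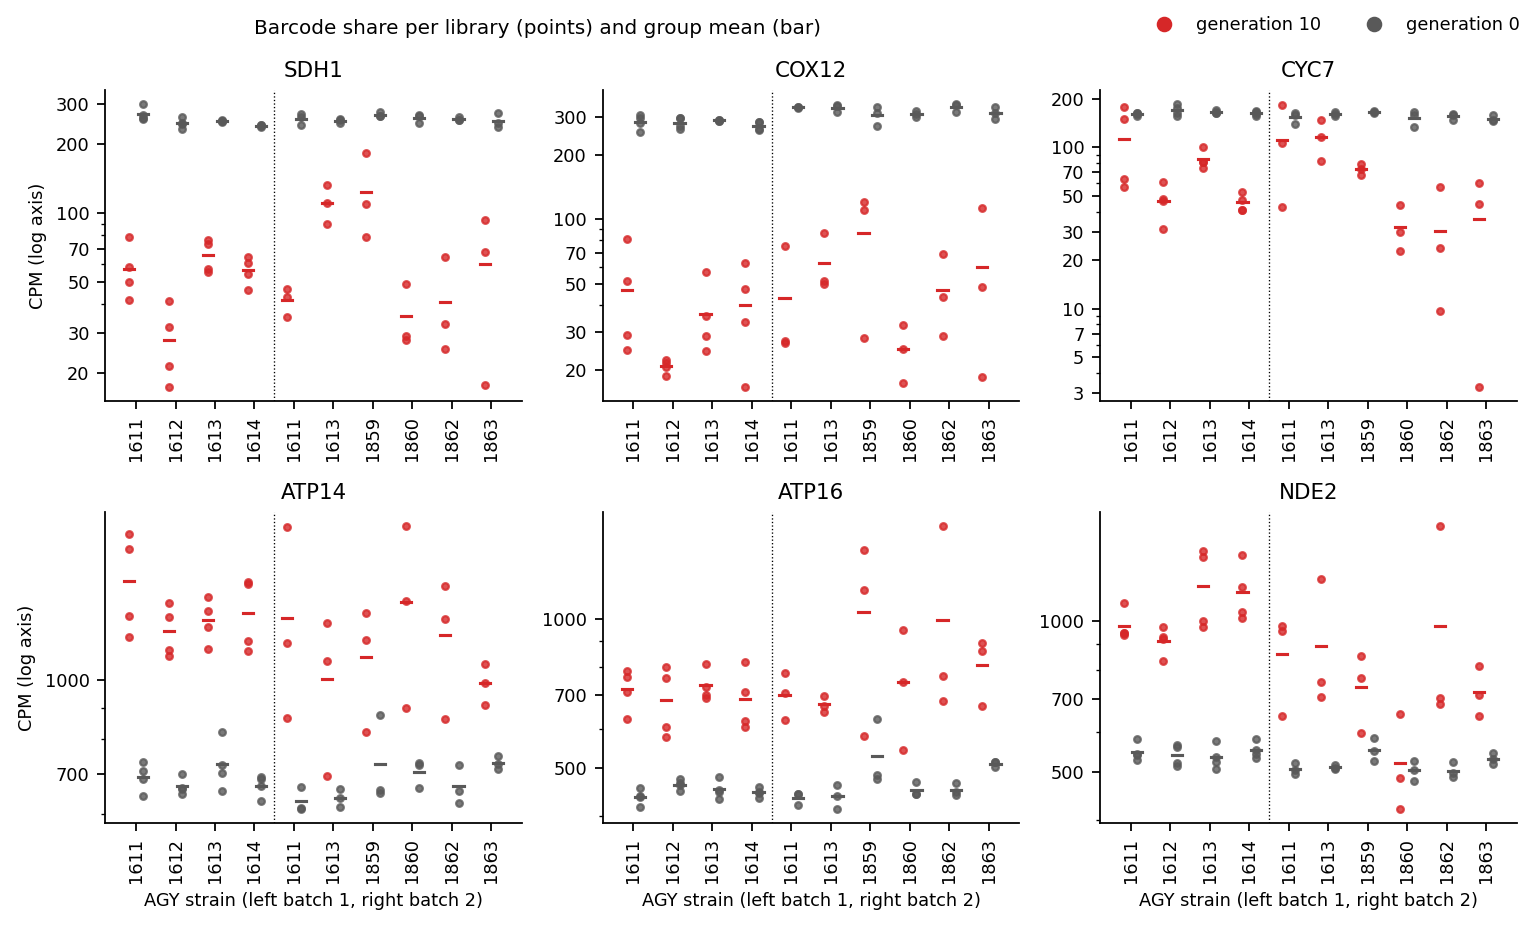
CPM on a log axis is plotted for each library at generation 10 (red, left) and generation 0 (grey, right) of each strain and batch, for SDH1, COX12, CYC7, ATP14, ATP16 and NDE2. The SDH1 and COX12 points at generation 10 lie between 16.8 and 184 CPM, under all generation 0 points, which lie between 232 and 348 CPM, while CYC7 overlaps between generations in AGY1611.

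Among the NADH dehydrogenases, which feed electrons from NADH to ubiquinone, the plasmid for NDE2 (YDL085W) gained share in most strains and that for its paralog NDE1 (YMR145C) in fewer. Both code for enzymes on the outer face of the inner membrane, and NDI1 codes for the one on the inner face. Batch 1 had 2, 2, 1 and 3 calls among 3 genes in AGY1611, AGY1612, AGY1613 and AGY1614 (47.8%, 43.1%, 40.8% and 53.1% of all names). Batch 2 had 1, 1, 2, 1, 2 and 1 in AGY1611, AGY1613, AGY1859, AGY1860, AGY1862 and AGY1863 (18.9%, 11.4%, 14.5%, 21.0%, 18.2% and 17.5% of all names). In batch 1, NDE2 had 937, 948, 1086 and 946 in AGY1611, 927, 834, 919 and 972 in AGY1612, 971, 999.6, 1376 and 1343 in AGY1613, and 1012, 1040.0, 1351 and 1168 in AGY1614 CPM at generation 10, against values between 508 and 582 CPM (median 541) in the 16 generation 0 libraries. In batch 2, NDE2 had 646, 977 and 954 in AGY1611, 757, 705 and 1212 in AGY1613, 768, 597 and 851 in AGY1859, 652, 422 and 486 in AGY1860, 701, 1545 and 684 in AGY1862, and 811, 711 and 645 in AGY1863 CPM at generation 10, against values between 480.0 and 584 CPM (median 519) in the 21 generation 0 libraries. NDE2 was above its generation 0 libraries in every culture except replicates 2 and 3 of AGY1860, and cultures C and D of AGY1613 and AGY1614, replicate 3 of AGY1613 and replicate 2 of AGY1862 were the highest. It rose by 0.94 ± 0.17 over the strains of batch 1 (log2, SD, n = 4, 1.92-fold), with edgeR adjusted p from 8.41e-09 to 3.53e-06, and kept all 4 calls with cultures summed in pairs. NDE2 rose in 3 strains of batch 2, AGY1611, AGY1613 and AGY1862, by 0.76, 0.81 and 0.95 (adjusted p = 0.0121, 0.0125 and 0.00197), and AGY1860 was at 0.05 (adjusted p = 0.91). Those 3 calls ended without replicate 2 or 3 of AGY1611 (0.109 and 0.0918), replicate 3 of AGY1613 (0.296) and replicate 2 of AGY1862 (0.261). The AGY1613 and AGY1862 calls also ended when fitted on their own libraries (0.0573 and 0.156).

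In batch 1, NDE1 had 186, 177, 51.9 and 101 in AGY1611, 255, 308, 265 and 313 in AGY1612, 187, 219.7, 184 and 205 in AGY1613, and 443, 489, 174 and 126 in AGY1614 CPM at generation 10, against values between 142 and 205 CPM (median 164) in the 16 generation 0 libraries. In batch 2, NDE1 had 197, 273 and 83.6 in AGY1611, 189.6, 168 and 222 in AGY1613, 597, 485 and 392 in AGY1859, 371, 324 and 316 in AGY1860, 135, 319 and 189 in AGY1862, and 136, 304 and 254 in AGY1863 CPM at generation 10, against values between 130.0 and 264 CPM (median 221) in the 21 generation 0 libraries. NDE1 was high in cultures A and B of AGY1614 and in all 3 cultures of AGY1859, and low in culture C and replicate 3 of AGY1611. It rose in AGY1859 (1.17 on the log2 scale, SE 0.31, edgeR adjusted p = 0.00615), AGY1614 (0.94, adjusted p = 0.01) and AGY1612 (0.73, adjusted p = 0.0492). The call ended without replicate 1 in AGY1859 (0.0942), without A or B in AGY1614 (0.0875 and 0.133), and without any 1 culture in AGY1612 (0.0558 to 0.159). In AGY1614 it also ended with library size alone (0.37, adjusted p = 0.281) and when fitted on its own libraries (0.0585), and in AGY1612 with at least 50 counts required at generation 0 (0.0518). Neither batch 1 call was kept with cultures summed in pairs (0.11 for AGY1614 and 0.268 for AGY1612). With the culture as a block NDE1 was also called in AGY1860 (adjusted p = 0.0469, against 0.117 without the block). The block ended the calls in AGY1612 and AGY1614 (0.0709 and 0.0768).

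NDI1 rose in AGY1611 and AGY1614 of batch 1, by 0.71 and 0.79 (log2, edgeR adjusted p = 0.0099 and 0.00435), calls that ended with cultures summed in pairs (0.188 and 0.0931) and with library size alone (0.50, adjusted p = 0.0714, and 0.25, adjusted p = 0.372). The AGY1611 call also ended when fitted on its own libraries (0.0971). NDI1 rose also in AGY1859, AGY1860, AGY1862 and AGY1863 of batch 2, by 0.80 to 0.96 (adjusted p from 0.00303 to 0.0102). It was at 0.42 in AGY1611 (adjusted p = 0.213) and -0.05 in AGY1613 (0.925). The call was lost without replicate C in AGY1611 of batch 1 (0.0896), B in AGY1614 (0.0537), 3 in AGY1859 (0.0658), 1 in AGY1860 (0.225) and 2 in AGY1862 (0.14), and AGY1863 kept it without any 1 culture. Fits to a comparison's own libraries ended the calls in AGY1859, AGY1860 and AGY1862 (0.0851, 0.0511 and 0.123).

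The scarce bc1 plasmid CYT1 (YOR065W), for cytochrome c1, was called lower in all 4 strains of batch 1 and 4 of 6 in batch 2. In the rest of the bc1 complex QCR7 fell in 3 strains of batch 1 and QCR2 rose in 3. Batch 1 had 3, 4, 4 and 4 calls among 7 genes in AGY1611, AGY1612, AGY1613 and AGY1614 (47.8%, 43.1%, 40.8% and 53.1% of all names). In batch 2 the calls were CYT1 in AGY1611, AGY1613, AGY1859 and AGY1860, and QCR8 and QCR9 in AGY1862. The shares of all names called were 18.9%, 11.4%, 14.5%, 21.0% and 18.2% in those 5 strains.

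In batch 1, CYT1 had 0, 0.480, 0.456 and 1.39 in AGY1611, 0.671, 0, 1.49 and 0.665 in AGY1612, 0, 0.471, 0 and 2.55 in AGY1613, and 0, 0, 0 and 0 in AGY1614 CPM at generation 10, against values between 3.12 and 7.03 CPM (median 6.08) in the 16 generation 0 libraries. In batch 2, CYT1 had 0, 0 and 0 in AGY1611, 0, 0 and 0 in AGY1613, 0, 0 and 0 in AGY1859, 0, 0 and 0 in AGY1860, 0, 0 and 10.6 in AGY1862, and 0, 0 and 2.19 in AGY1863 CPM at generation 10, against values between 2.16 and 8.79 CPM (median 5.12) in the 21 generation 0 libraries. CYT1 was at 0 counts in every generation 10 library of AGY1614 in batch 1 and of AGY1611, AGY1613, AGY1859 and AGY1860 in batch 2, while replicate 3 of AGY1862 was above its generation 0 libraries. Against a floor of 3 counts per library, these were at least 1.41-fold lower in AGY1614, and at least 2.67-fold, 1.93-fold, 2.63-fold and 2.77-fold lower in AGY1611, AGY1613, AGY1859 and AGY1860. CYT1 was called lower in those 5 comparisons (edgeR adjusted p from 0.00017 to 0.0172). In the other 3 strains of batch 1 the log2 changes were -3.06, -2.96 and -2.78 (adjusted p from 0.00137 to 0.0027). AGY1862 and AGY1863 were not called (adjusted p = 0.862 and 0.192). With cultures summed in pairs only AGY1614 kept the call (adjusted p = 0.00867, others 0.0625 to 0.116). The batch 2 calls were lost without replicate 2 of AGY1611 (0.0779), any replicate of AGY1613 (0.0522 to 0.131), replicate 3 of AGY1859 (0.0623) or replicate 1 of AGY1860 (0.0539). With 13 to 56 counts per generation 0 library of batch 1, smaller changes of CYT1 were not detectable at this depth.

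QCR7 (YDR529C), a small subunit needed to assemble the complex, had the lowest mean in batch 1 among bc1 genes with at least 50 counts. In batch 1, QCR7 had 389, 438, 219 and 176 in AGY1611, 144, 172, 138 and 150.0 in AGY1612, 231, 219, 151 and 151 in AGY1613, and 154, 148, 102 and 145 in AGY1614 CPM at generation 10, against values between 225 and 309 CPM (median 265) in the 16 generation 0 libraries. In batch 2, QCR7 had 313, 483 and 221 in AGY1611, 294, 237 and 182 in AGY1613, 323, 317 and 283 in AGY1859, 145, 213 and 341 in AGY1860, 223, 731 and 403 in AGY1862, and 459, 146 and 480.4 in AGY1863 CPM at generation 10, against values between 306 and 370.0 CPM (median 341) in the 21 generation 0 libraries. All cultures of AGY1612, AGY1613 and AGY1614 were under their generation 0 libraries, while in AGY1611 cultures A and B were above and C and D below. QCR7 fell in AGY1612, AGY1613 and AGY1614, with changes of -0.85, -0.56 and -0.89 (log2, edgeR adjusted p = 0.0011, 0.026 and 0.000724). No call was kept with cultures summed in pairs (0.139, 0.343 and 0.0701), and the AGY1613 call ended without C (0.164) or D (0.124). No strain of batch 2 had a QCR7 call.

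QCR2 (YPR191W), a core protein of the complex, had the highest mean change of the complex in batch 1. In batch 1, QCR2 had 241, 241, 158 and 158 in AGY1611, 263, 249, 278 and 221 in AGY1612, 227, 197, 367 and 334 in AGY1613, and 337, 337, 303 and 239 in AGY1614 CPM at generation 10, against values between 158 and 179 CPM (median 166) in the 16 generation 0 libraries. In batch 2, QCR2 had 199.9, 204 and 131 in AGY1611, 185, 207 and 332 in AGY1613, 161, 207 and 156 in AGY1859, 241, 192 and 175 in AGY1860, 218, 168 and 156 in AGY1862, and 239, 191 and 126 in AGY1863 CPM at generation 10, against values between 152 and 187 CPM (median 161) in the 21 generation 0 libraries. In batch 1 all 4 cultures were above generation 0 in AGY1612, AGY1613 and AGY1614, and in AGY1611 A and B were. QCR2 rose by 0.61, 0.77 and 0.86 in those 3 strains (log2, edgeR adjusted p = 0.00363, 0.000548 and 9.6e-05), and AGY1614 kept the call with cultures summed in pairs (0.0311), AGY1612 and AGY1613 not (0.172 and 0.107). With library size alone AGY1614 was at 0.33 (0.0988). In batch 2 it was called in no strain, with changes from 0.12 to 0.57.

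In batch 2 the highest mean was that of COR1, the other core protein. In batch 1 COR1 had 577, 559, 267 and 227 CPM at generation 10 of AGY1613, against 199, 203, 198 and 201 CPM at generation 0. Its cultures A and B were higher than C and D, and all 4 were above generation 0 (log2 change 1.02, SE 0.21, edgeR adjusted p = 0.000231, and 0.0754 with cultures summed in pairs). COR1 was also called in AGY1612 (0.59, adjusted p = 0.0208, and 0.248 with cultures summed in pairs). QCR9, a small subunit, rose in AGY1614 of batch 1 (0.61, adjusted p = 0.00571, and 0.131 with cultures summed in pairs) and in AGY1862 of batch 2 (0.81, adjusted p = 0.00323). Library size alone put the AGY1614 value at 0.12 (0.635), and both calls ended when fitted on their own libraries (0.0698 and 0.0665). Without replicate 2 the AGY1862 value was 0.66 (0.0748). QCR6, an acidic subunit, was called in AGY1611 of batch 1 (0.98, adjusted p = 0.0225) and QCR8, another small subunit, in AGY1611 of batch 1 (0.64, adjusted p = 0.0152) and AGY1862 of batch 2 (0.94, adjusted p = 0.0449). Both batch 1 calls ended with cultures summed in pairs (0.254 and 0.189), that of QCR6 also without A, B or C (0.058 to 0.0742) and that of QCR8 without C or D (0.0791 and 0.0584), and the AGY1862 call of QCR8 ended without replicate 1 or 2 (0.146 and 0.38). Library size alone ended the QCR6 call (0.0863) and both QCR8 calls (0.43, adjusted p = 0.105, and 0.107). The AGY1862 call of QCR8 also ended when fitted on its own libraries (0.175).

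Cytochrome c carries electrons from the bc1 complex to the oxidase, and yeast codes for it in CYC1 (YJR048W), the main aerobic isoform, and CYC7 (YEL039C), the isoform known for expression at low oxygen. CYC7 fell in 6 of the 10 strain comparisons, and CYC1, with fewer counts, in 2. Batch 1 had 0, 1, 2 and 1 calls among 2 genes in AGY1611, AGY1612, AGY1613 and AGY1614 (47.8%, 43.1%, 40.8% and 53.1% of all names). Batch 2 had 0, 0, 0, 1, 2 and 1 in AGY1611, AGY1613, AGY1859, AGY1860, AGY1862 and AGY1863 (18.9%, 11.4%, 14.5%, 21.0%, 18.2% and 17.5% of all names). In batch 1, CYC7 had 63.3, 56.6, 149 and 178 in AGY1611, 61.1, 47.7, 31.4 and 46.2 in AGY1612, 81.6, 100.0, 81.6 and 74.7 in AGY1613, and 53.2, 40.9, 41.1 and 47.4 in AGY1614 CPM at generation 10, against values between 155 and 185 CPM (median 163) in the 16 generation 0 libraries. In batch 2, CYC7 had 107, 42.4 and 184 in AGY1611, 116, 148 and 82.7 in AGY1613, 67.4, 73.3 and 78.4 in AGY1859, 29.9, 22.8 and 44.0 in AGY1860, 57.0, 9.74 and 23.9 in AGY1862, and 3.29, 59.9 and 44.3 in AGY1863 CPM at generation 10, against values between 133 and 172 CPM (median 159) in the 21 generation 0 libraries. In AGY1611 cultures A and B and replicate 2 were low while C, D and replicate 3 were near or above generation 0. All cultures of the other strains were below generation 0. CYC7 fell in AGY1612, AGY1613 and AGY1614 of batch 1, with changes of -1.87, -0.97 and -1.85 (log2, edgeR adjusted p = 4.63e-07, 0.00227 and 1.07e-06), and AGY1611 was at -0.52 (adjusted p = 0.077). It also fell in AGY1860, AGY1862 and AGY1863 of batch 2, with changes of -2.26, -2.32 and -2.04 (adjusted p = 0.000672, 0.000736 and 0.00229), with -1.18 in AGY1859 (adjusted p = 0.0918). The AGY1613 call of batch 1 ended with cultures summed in pairs (0.171). Those in AGY1862 and AGY1863 ended when fitted on their own libraries (0.0773 and 0.144).

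In batch 1, CYC1 had 3.55, 3.36, 35.5 and 31.2 in AGY1611, 26.8, 22.1, 11.0 and 12.6 in AGY1612, 9.25, 10.8, 0 and 7.29 in AGY1613, and 11.4, 9.96, 38.9 and 34.2 in AGY1614 CPM at generation 10, against values between 23.4 and 37.1 CPM (median 31.8) in the 16 generation 0 libraries. In batch 2, CYC1 had 16.4, 1.30 and 17.0 in AGY1611, 5.03, 5.44 and 1.48 in AGY1613, 7.49, 7.05 and 17.6 in AGY1859, 7.72, 7.20 and 27.6 in AGY1860, 0, 3.65 and 0.391 in AGY1862, and 7.40, 20.0 and 0 in AGY1863 CPM at generation 10, against values between 0 and 20.1 CPM (median 16.1) in the 21 generation 0 libraries. CYC1 was low in all cultures of AGY1613 in both batches and of AGY1862, and it was split in AGY1611, where A, B and replicate 2 were low and the others at the generation 0 level. It fell in AGY1613 of batch 1 (log2 change -2.15, SE 0.66, edgeR adjusted p = 0.00992) and in AGY1862 (-3.95, SE 1.29, adjusted p = 0.0276). The first call ended with cultures summed in pairs (0.199), and the other without replicate 1 (0.146) or 3 (0.126) and when fitted on its own libraries (0.135). AGY1613 of batch 2 was at -2.13 (adjusted p = 0.238).

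In cytochrome c oxidase, which reduces oxygen to water, the plasmid for COX12 was depleted more than any other of the 33 with at least 50 counts, and COX13 rose in the strains of batch 1. COX12 (YLR038C) codes for a small subunit on the intermembrane side, where cytochrome c binds, and COX13 (YGL191W) for a subunit at the edge of the enzyme. Batch 1 had 6, 3, 3 and 5 calls among 8 genes in AGY1611, AGY1612, AGY1613 and AGY1614 (47.8%, 43.1%, 40.8% and 53.1% of all names). Batch 2 had 3, 1, 1, 3, 1 and 3 among 7 in AGY1611, AGY1613, AGY1859, AGY1860, AGY1862 and AGY1863 (18.9%, 11.4%, 14.5%, 21.0%, 18.2% and 17.5% of all names).

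In batch 1, COX12 had 29.0, 24.9, 51.9 and 81.6 in AGY1611, 18.8, 21.7, 22.4 and 20.6 in AGY1612, 24.5, 28.8, 35.6 and 57.2 in AGY1613, and 47.5, 16.8, 33.3 and 63.1 in AGY1614 CPM at generation 10, against values between 255 and 307 CPM (median 284) in the 16 generation 0 libraries. In batch 2, COX12 had 27.4, 26.8 and 75.4 in AGY1611, 50.3, 51.7 and 86.4 in AGY1613, 28.3, 111 and 120.0 in AGY1859, 32.3, 25.2 and 17.4 in AGY1860, 28.7, 43.8 and 68.9 in AGY1862, and 48.5, 113 and 18.6 in AGY1863 CPM at generation 10, against values between 272 and 348 CPM (median 328) in the 21 generation 0 libraries. Every generation 10 library was below every generation 0 library of its batch, with AGY1612 and AGY1860 low in all cultures. The log2 change averaged -3.05 ± 0.50 in batch 1 (SD, n = 4 strains, 8.25-fold lower), from -3.75 in AGY1612 to -2.59 in AGY1611, with edgeR adjusted p from 9.82e-11 to 5.81e-08. In batch 2 it averaged -2.65 ± 0.61 (SD, n = 6 strains, 6.30-fold lower), from -3.60 in AGY1860 to -1.81 in AGY1859, with adjusted p from 4.57e-08 to 0.00173. All batch 1 calls were kept with cultures summed in pairs (adjusted p from 0.000173 to 0.00386), and leaving out 1 culture ended none of the 10 calls. Fitted on its own libraries, the AGY1859 value of -1.81 had an adjusted p of 0.0967.

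In batch 1, COX13 had 538, 561, 429 and 381 in AGY1611, 523, 435, 427 and 442 in AGY1612, 288, 281, 481 and 396 in AGY1613, and 424, 356, 409.8 and 329 in AGY1614 CPM at generation 10, against values between 253 and 330.0 CPM (median 273) in the 16 generation 0 libraries. In batch 2, COX13 had 343, 569 and 399 in AGY1611, 302, 273 and 378 in AGY1613, 368, 337 and 379 in AGY1859, 337, 285 and 530.3 in AGY1860, 359, 389.6 and 293 in AGY1862, and 367, 424 and 366 in AGY1863 CPM at generation 10, against values between 249 and 303 CPM (median 278) in the 21 generation 0 libraries. COX13 was above generation 0 in all cultures of AGY1611 and AGY1612, while in AGY1613 cultures A and B, and in AGY1614 culture D, were at the generation 0 level. It rose by 0.84, 0.76, 0.37 and 0.37 in AGY1611, AGY1612, AGY1613 and AGY1614 (log2, edgeR adjusted p = 1.9e-05, 5.31e-05, 0.0342 and 0.0282) and by 0.75 in AGY1611 of batch 2 (adjusted p = 0.00887). The call in AGY1613 ended with cultures summed in pairs (0.319), median-of-ratios size factors (0.0636), and without C (0.283) or D (0.104). The one in AGY1614 ended with cultures summed in pairs (0.222) and without A, B or C (0.121, 0.074 and 0.154), and library size alone turned its value to -0.15. Library size alone (0.21, adjusted p = 0.278) and a fit to its own libraries (0.124) also ended the AGY1613 call. With the culture as a block the AGY1613 and AGY1614 calls ended too (0.105 and 0.0608). The batch 2 call ended without replicate 2 (0.169) and when fitted on its own libraries (0.0608).

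COX5A (YNL052W) and COX5B (YIL111W) code for alternative forms of 1 subunit, used in air and at low oxygen. In batch 1, COX5A had 90.0, 116, 30.5 and 44.4 in AGY1611, 44.3, 68.8, 74.7 and 80.8 in AGY1612, 33.2, 44.3, 53.7 and 60.9 in AGY1613, and 72.3, 102, 57.7 and 52.6 in AGY1614 CPM at generation 10, against values between 40.1 and 88.4 CPM (median 50) in the 16 generation 0 libraries. In batch 2, COX5A had 92.2, 217 and 71.4 in AGY1611, 52.0, 55.8 and 93.8 in AGY1613, 58.2, 125 and 73.1 in AGY1859, 222, 225 and 139 in AGY1860, 144, 108 and 76.3 in AGY1862, and 37.8, 79.8 and 275 in AGY1863 CPM at generation 10, against values between 63.4 and 142 CPM (median 93.6) in the 21 generation 0 libraries. COX5A had no call, with libraries on both sides of their generation 0 values in all strains of batch 1. In AGY1860 of batch 2 all 3 cultures were higher (log2 change 1.29, SE 0.51, edgeR adjusted p = 0.0614, and 0.0289 with the culture as a block).

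In batch 1, COX5B had 472, 483, 87.5 and 80.2 in AGY1611, 117, 131, 167 and 173 in AGY1612, 57.1, 67.4, 220.1 and 203 in AGY1613, and 198, 219, 2113 and 1494 in AGY1614 CPM at generation 10, against values between 93.2 and 134 CPM (median 105) in the 16 generation 0 libraries. In batch 2, COX5B had 225, 575 and 73.0 in AGY1611, 106, 68.0 and 247 in AGY1613, 275, 141 and 154 in AGY1859, 136, 89.6 and 203 in AGY1860, 112, 175 and 164 in AGY1862, and 284, 368 and 106 in AGY1863 CPM at generation 10, against values between 107 and 158 CPM (median 121) in the 21 generation 0 libraries. COX5B split by pairs of cultures in 3 strains. It was high in A and B of AGY1611 and in replicate 2 of the same strain in batch 2, and in AGY1614 C and D held the highest levels. AGY1613 had C, D and replicate 3 high and A, B and replicate 2 low. COX5B rose in AGY1614 by 3.16 (log2, SE 0.59, 8.94-fold, edgeR adjusted p = 5.39e-05, and 0.0201 with cultures summed in pairs). In AGY1611 it was called at 1.48 in batch 1 (adjusted p = 0.0304) and at 1.29 in batch 2 (adjusted p = 0.0433). These ended without A or B (0.173 and 0.177) or with cultures summed in pairs (0.253) in batch 1. In batch 2 the call ended without replicate 1 (0.0748) or 2 (0.721, with a log2 change of 0.38). Library size alone and fits to a comparison's own libraries ended the AGY1611 calls of both batches (0.0798 and 0.0802 in batch 1, 0.0885 and 0.227 in batch 2). Median-of-ratios size factors also ended the batch 2 call (0.0551), and the culture as a block ended both AGY1611 calls (0.171 in batch 1 and 0.126 in batch 2).

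**Figure D4:**
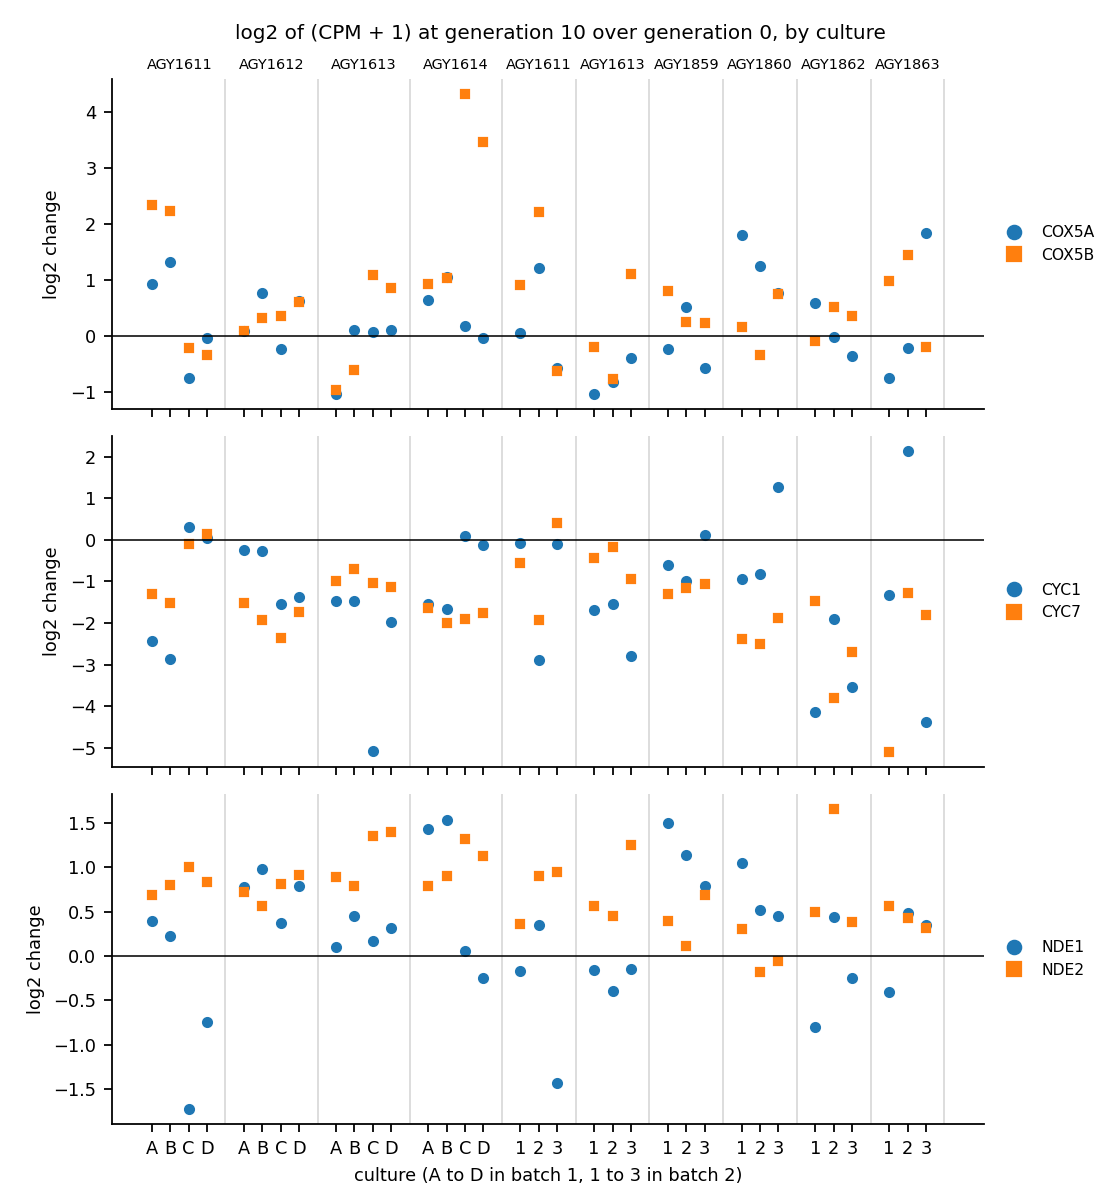
The log2 change of CPM plus 1 from generation 0 to generation 10 is plotted for each culture of each strain and batch, for the pairs COX5A and COX5B, CYC1 and CYC7, and NDE1 and NDE2. NDE2 lies above 0 in nearly all cultures, and CYC7 lies below 0 in all but culture D and replicate 3 of AGY1611, while COX5B in AGY1611 splits into cultures above and below 0.

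The remaining oxidase genes had calls in fewer strains. COX7 had 545, 467, 755 and 653 CPM at generation 10 of AGY1611, against 365, 363, 356 and 364 CPM at generation 0. In AGY1612 it had 258, 242, 281 and 292 CPM at generation 10, against 389.9, 371, 388 and 378 CPM at generation 0. All cultures were higher in the first strain and lower in the second, at 0.74 (log2, edgeR adjusted p = 5.68e-06, and 0.0328 with cultures summed in pairs) and -0.51 (adjusted p = 0.00054, and 0.145 with cultures summed in pairs). COX9, a small membrane subunit, rose in AGY1611 and AGY1613 of batch 1, by 0.52 and 0.44 (adjusted p = 0.00371 and 0.0144), and fell in AGY1614 (-0.46, adjusted p = 0.00903). None of these calls was kept with cultures summed in pairs (0.16, 0.253 and 0.296). Library size alone put the rises at 0.30 and 0.27 (adjusted p = 0.0778 and 0.131). The AGY1611 and AGY1614 calls ended when fitted on their own libraries (0.0575 and 0.0834). COX8, another small subunit, rose in AGY1860 and AGY1863 of batch 2, by 0.92 in each (adjusted p = 0.0232 and 0.0281). Its call ended without replicate 1 (0.31) or 3 (0.0567) in AGY1860 and without any 1 culture in AGY1863 (0.0567 to 0.139), and both calls ended with library size alone (0.0597 and 0.0513). COX6, with few counts, was called lower in AGY1611 and AGY1614 of batch 1 (-3.03 and -3.40, adjusted p = 0.00508 and 0.00755) and in AGY1860 and AGY1863 of batch 2 (adjusted p = 0.0386 and 0.0449). No COX6 call held with cultures summed in pairs (0.18 and 0.138) in batch 1, and leaving out any 1 culture ended both batch 2 calls (0.101 to 0.2).

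At generation 5, measured in 4 strains of batch 2, only AGY1860 had called genes, with SDH1 and COX12 lower and ATP14 and ATP15 higher. This was 4 of 32 genes in AGY1860, where 7.32% of all names were called. In AGY1611 and AGY1613, edgeR called 0 of 32 genes, with 5 and 4 at an unadjusted p under 0.05, and 0.0% of all names. In AGY1861 it called 0, with 1 at an unadjusted p under 0.05, and 2.58% of all names. DESeq2 called 0, 0, 5 and 0 genes in AGY1611, AGY1613, AGY1860 and AGY1861, the additional one being CYC7, and a separate fit per comparison called 7, 4, 6 and 1. With the culture as a block AGY1860 had 5, ATP16 being added (0.58 on the log2 scale, adjusted p = 0.0441). Leaving out any 1 culture of AGY1860 left 2 calls.

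SDH1 in AGY1860 had 268, 249 and 265 CPM at generation 0, 105, 76.7 and 102 CPM at generation 5 and 29.0, 28.0 and 49.1 CPM at generation 10. In AGY1611 it had 272, 243 and 262, then 121, 188 and 233, then 46.5, 35.2 and 43.0 CPM at generations 0, 5 and 10. In AGY1613 the values were 247, 255 and 258, then 165, 172 and 178, then 133, 111 and 89.4 CPM. Generation 5 lay between generations 0 and 10 in each of these cultures, and AGY1860 was lowest at generation 5. Its change there was -1.47 (log2, SE 0.35, edgeR adjusted p = 0.00599), against -0.54 in AGY1611 and -0.56 in AGY1613 (adjusted p = 0.999 and 0.998). AGY1861 had 279.9, 210.1 and 143 CPM at generation 5, against 257, 258 and 256 CPM at generation 0 (-0.31, adjusted p = 0.95). Without replicate 2 the AGY1860 value was -1.34 (adjusted p = 0.0939).

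COX12 in AGY1860 had 308, 297 and 319.9 CPM at generation 0, 133, 49.5 and 84.0 CPM at generation 5 and 32.3, 25.2 and 17.4 CPM at generation 10. In AGY1611 it had 332, 333 and 329, then 116, 199.5 and 174, then 27.4, 26.8 and 75.4 CPM. In AGY1613 it had 316, 336 and 338, then 169, 193 and 194, then 50.3, 51.7 and 86.4 CPM. All 9 cultures were lower at generation 5 than at generation 0 and lower again at generation 10. The generation 5 change was -1.81 in AGY1860 (SE 0.42, edgeR adjusted p = 0.00449), -1.02 in AGY1611 (0.999), -0.83 in AGY1613 (0.937) and -0.45 in AGY1861 (0.926). The AGY1860 call ended without replicate 2 (0.111) or 3 (0.06). ATP14 was at 0.81 in AGY1860 (adjusted p = 0.0253) and ATP15 at 0.71 (adjusted p = 0.00344), against 0.10 to 0.65 and 0.31 to 0.49 in the other strains (adjusted p from 0.583 to 0.999). The ATP14 call ended with library size alone (0.0588) and without replicate 1 (0.279) or 3 (0.0838), and the ATP15 call without replicate 1 (0.0587).

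**Figure D5:**
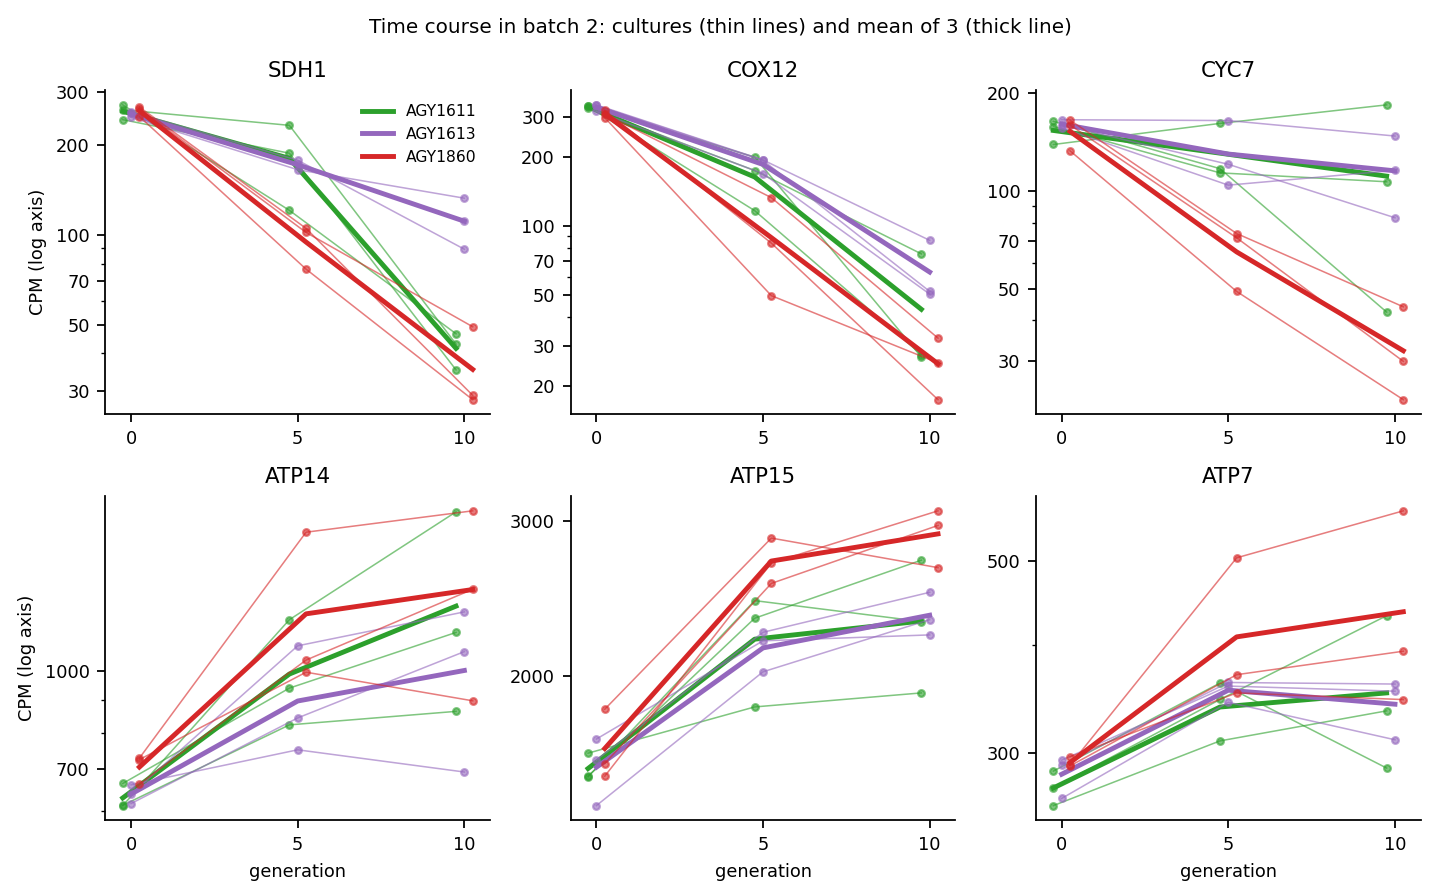
CPM at generations 0, 5 and 10 is plotted for each culture of AGY1611, AGY1613 and AGY1860 of batch 2, for SDH1, COX12, CYC7, ATP14, ATP15 and ATP7. SDH1 and COX12 fall at each step in all 9 cultures, and AGY1860 reaches 28.0 to 49.1 CPM for SDH1 and 17.4 to 32.3 CPM for COX12 at generation 10.

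Whether the generation 10 change of a gene differed between strains was tested jointly in each batch. In batch 1, 11 of 33 genes differed (ATP3, ATP7, ATP20, INH1, COX5B, COX7, COX9, COR1, QCR7, SDH1 and CYC7), where 48.1% of all names did. With cultures summed in pairs edgeR called 0 of the 33 (2 with an unadjusted p under 0.05, smallest adjusted p 0.129), where 1.37% of all names were called. DESeq2 on the 4 separate cultures called 13 of the 33. In batch 2, SDH1 alone of 32 genes differed (edgeR adjusted p = 0.0292), where 6.22% of all names did. DESeq2 called 3 there (SDH1, CYC7 and NDE1), and the fit with the culture as a block called SDH1, COX8 and NDE1. The SDH1 result of batch 2 was lost without any 1 replicate of AGY1613, replicate 3 of AGY1859, or replicate 1 or 2 of AGY1860, when 0 genes were called.

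SDH1 was called by the joint test in both batches, but in batch 1 only with all cultures taken as separate. The batch 2 call was lost without some single replicates, as given above. With the cultures of batch 1 taken as separate, SDH1 fell further in AGY1612 than in the other strains. AGY1612 minus AGY1611 was -0.88 (log2, SE 0.28, edgeR adjusted p = 0.0212). AGY1613 and AGY1614 were higher than AGY1612 by 1.18 (SE 0.28, adjusted p = 0.00303) and 1.01 (SE 0.29, adjusted p = 0.0175). The other 3 pairs differed by 0.13 to 0.30 in size (adjusted p from 0.473 to 0.758). In batch 2, of 15 pairs, AGY1860 minus AGY1859 was -1.79 (SE 0.50, adjusted p = 0.0365) and AGY1860 minus AGY1613 was -1.71 (SE 0.50, adjusted p = 0.0526), and the others had adjusted p from 0.0795 upward. COX12, whose change ran from -3.75 to -2.59 over the strains of batch 1, was not called by the joint test in either batch.

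Genes that help to build these complexes were counted from lists of pathway genes. Among assembly factors of cytochrome c oxidase (25 entries tested in batch 1), COX20 and CMC1 were lower in all 4 strains of batch 1 and SCO2 was higher in all 4. COX20, which guides the mitochondrially coded Cox2 subunit, averaged -2.77 ± 0.69 there (log2, SD, n = 4 strains) and was lower in all 6 strains of batch 2. Oxidase assembly genes had 27 lower and 14 higher calls of 100 in batch 1, and 21 lower and 1 higher of 144 in batch 2. For all names the shares were 24.8% lower and 21.4% higher in batch 1, and 11.2% and 5.69% in batch 2. Factors for mitochondrial mRNAs had 18 lower and 8 higher calls of 52, and 10 lower and 0 higher of 84. AEP3, known for stabilising the mRNA of mitochondrially coded ATP synthase subunits, was lower in every strain of both batches, at -3.26 ± 0.46 (SD, n = 4 strains) and -3.49 ± 1.06 (SD, n = 6 strains).

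Against those shares of all names (24.8% lower and 21.4% higher in batch 1, 11.2% and 5.69% in batch 2), assembly factors of the ATP synthase had 6 lower and 5 higher calls of 32 in batch 1, and 5 lower and 0 higher of 48 in batch 2. Those of the bc1 complex had 7 lower and 6 higher of 28, and 5 lower and 0 higher of 42, and FMP25 was higher in every strain of batch 1 (0.49 ± 0.14, SD, n = 4 strains). Those of succinate dehydrogenase had 6 lower and 3 higher of 20, and 6 lower and 1 higher of 30. The HAP activators of respiratory genes had 5 lower and 1 higher of 16, and 1 lower and 0 higher of 24. The list of carriers and the cytochrome c heme lyase had 5 lower and 2 higher of 20, and 0 lower and 2 higher of 30. The tricarboxylic acid cycle had 11 lower and 13 higher calls of 52, and 15 lower and 8 higher of 78. In it CIT3, a mitochondrial citrate synthase, was lower in every strain of both batches (-3.70 ± 0.71 and -6.16 ± 1.24, SD over 4 and 6 strains). Its values in batch 2 ran from -7.56 to -4.47. The fit gave CYT1 a value of -7.33 in AGY1611 of batch 2, where no counts were left. Counts of CIT3 are not given here, so the size of its fall is an estimate of the fit alone. LPD1, the dihydrolipoamide dehydrogenase shared by several mitochondrial enzymes, was higher in every strain of batch 1 (1.33 ± 0.51, SD, n = 4 strains).

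Gene length and starting level were set beside the mean change of the genes, and an effect of either was not tested. Over the 33 genes of batch 1 the Spearman correlation of the mean generation 10 change was 0.291 with gene length and 0.186 with the mean count at generation 0, and over the 32 genes of batch 2 it was 0.174 and 0.343. The plasmids with the fewest counts, CYT1, COX6 and CYC1, had mean changes of -4.14, -2.37 and -1.05 in batch 1. The CYT1 mean includes -7.76 in AGY1614, where no counts were left. Against a floor of 3 counts per library, that fall was at least 1.41-fold. In AGY1611, AGY1612 and AGY1613 CYT1 was at -3.06, -2.96 and -2.78. COX12 and SDH1, with far more counts, were at -3.05 and -2.36. All these values describe genes of the same libraries, which share depth and scaling.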

How the data were processed

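Plasmid barcodes of 83 libraries were amplified with 20 PCR cycles and sequenced, per the labels' protocols. The authors deposited raw counts, 1 table per batch, with a row for each of 4871 gene names and for an empty vector. How reads were matched to barcodes is not given in the sources used here. Each batch was fitted as a whole in edgeR 4.0.16 under R 4.3.3, after TMM scaling and a filter on low counts (filterByExpr, minimum 10). The model had a coefficient for each pair of strain and generation, contrasts were tested by quasi-likelihood F tests, and p-values were adjusted by Benjamini-Hochberg over the 4615 names tested in batch 1 or the 4579 in batch 2. The empty vector was left out. CPM use TMM-scaled library sizes, and changes per culture a pseudocount of 1. Changes are relative to the rest of the pool. Reads were not tied to single molecules, so floors cover counting error only.

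Values of every generation 10 library are given for genes called in 1 direction in every strain of a batch, the lowest and highest mean of each complex in batch 1 with at least 50 counts at generation 0 (NADH dehydrogenases and cytochromes c taken as 1 group), genes called by the joint test in both batches, and the isoform pairs. Further genes named by their values were chosen after these were seen. The genes and the pathway lists were chosen with earlier results of these data known. The list of pathway genes held 86 names. In simulated counts with known changes, edgeR called 59% of changes of 1 and 86% of changes of 2 (log2) for AGY1611 at generation 10 of batch 1, and 34% and 85% in batch 2. The simulated libraries were independent, unlike the paired cultures of batch 1. Of 4613 names simulated in batch 1 and 4568 in batch 2, 100 changed at each size. All of these had at least 50 counts and changed in that group alone. These shares hold for that setting and were not measured for the real data.

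Alternatives were DESeq2 1.42.0, median-of-ratios size factors or library size alone in edgeR, no filter, at least 50 counts at generation 0, a fit of each comparison's libraries alone, cultures summed in pairs in batch 1, a block for each culture and leaving out each culture. A generation 0 library shares its replicate letter or number with later libraries. Deviations from group means of same-numbered libraries correlated over 0.1 in every pair of AGY1859 (0.206 to 0.536), AGY1860 (0.173 to 0.304) and AGY1863 (0.218 to 0.416). The culture block was therefore used beside results of those strains, and calls that it ended in other strains are also given.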

Additional observations from a re-analysis of the deposited data

Results flagged for a closer look

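In 8 of 144 groups of 4 libraries in batch 1, 1 library stood apart from the other 3 by Dixon's ratio, where chance sets apart about 1 in 20 groups. At generation 10 these were NDE2 in culture C of AGY1611 (1086 CPM, others 937 to 948) and COX13 in culture A of AGY1612 (523 CPM, others 427 to 442). At generation 0 they were COX5B in culture A of AGY1611 (93.2 CPM, others 102 to 103), COX13 in culture C of AGY1612 (257 CPM, others 273 to 275), ATP7 in culture A of AGY1613 (272 CPM, others 250 to 251) and CYC1 in culture A of AGY1613 (27.4 CPM, others 31.6 to 32.4). Culture D of AGY1614 had low ATP15 (1202 CPM, others 1684 to 1738) and high COX5B (134 CPM, others 104 to 107) at generation 0.

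The generation 10 change differed between the strains of batch 1 by edgeR's joint test for 11 of 33 genes, where 48.1% of all names differed. With cultures summed in pairs (A with B, C with D) it called 0 of the 33 (2 with an unadjusted p under 0.05, smallest adjusted p 0.129), while DESeq2 on separate cultures called 13. On separate cultures edgeR's adjusted p was 8.07e-06 for COX7, 7.5e-05 for ATP3, 0.00077 for COX9, 0.00367 for CYC7, 0.00399 for SDH1, 0.00459 for QCR7, 0.00516 for INH1, 0.00535 for ATP20, 0.0114 for COX5B, 0.0165 for COR1 and 0.0285 for ATP7. In batch 2 it was 0.0292 for SDH1, where 6.22% of all names differed. COX7, with the smallest p, was higher in AGY1611 and lower in AGY1612, and it could not be tested in batch 2.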

How the results depend on the processing

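COX12, SDH1, CYT1, ATP14, ATP16, NDE2 and ATP15 kept their direction under the alternatives run in the strains where they were called, CYT1 not being tested with at least 50 counts at generation 0, and ATP15 in AGY1614 being at 0.01 (adjusted p = 0.95) with library size alone. Of the 74 calls of batch 1, DESeq2 kept 74, no filter 74, size factors 73, the replicate block 67, fits of single comparisons 66, library size alone 59 and summed cultures 30. Of the 65 of batch 2, DESeq2 kept 65, no filter 65, size factors 64, the replicate block 63, library size alone 51 and fits of single comparisons 37. Called genes in AGY1611, AGY1612, AGY1613 and AGY1614 became 8, 6, 5 and 11 with cultures summed, and the joint count 0, with fewer values per group. Fits of single comparisons gave 3 in AGY1859 and 4 in AGY1862 at generation 10, and 7, 4 and 1 in AGY1611, AGY1613 and AGY1861 at generation 5. DESeq2 gave 3 by the joint test of batch 2. Library size alone gave 19 in AGY1861 at generation 5, and moved the median of the genes to 0.12 in AGY1611, -0.08 in AGY1613 and -0.23 in AGY1614 of batch 1 and -0.90 in AGY1861. That setting moved the median of all names to -0.49 in AGY1614 and -0.88 in AGY1861, and its calls in AGY1614 were 1981 lower and 428 higher, against 1304 and 1145. It turned COX13 in AGY1614 to -0.15 (adjusted p = 0.423). The cause of these shifts was not tested.

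Replicate numbers paired the libraries of AGY1859, AGY1860 and AGY1863, where the replicate block gave 9, 14 and 12 calls at generation 10 and changed no other call than those given above. In AGY1613 of batch 2, where pairs did not all correlate, the block gave 10 calls, against 6, and it gave 3 by the joint test of batch 2. In batch 1 the block gave 19, 15, 15 and 19 calls and 8 by the joint test. Besides calls of COX13, NDE1 and COX5B given above, it ended ATP20 in AGY1612 (edgeR adjusted p = 0.0696) and QCR7 in AGY1613 (0.05). In batch 2 it also ended ATP4 in AGY1862 (0.23).

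Leaving out 1 culture gave 16 to 19, 13 to 15, 15 to 16 and 19 to 20 calls in the strains of batch 1, and 10 to 13 by the joint test. A culture left out there keeps its close partner in the fit (A with B, C with D). These ranges therefore cannot show how far calls of batch 1 depend on 1 pair. In batch 2 leaving out 1 culture gave 3 to 9 in AGY1611, 2 to 4 in AGY1613, 3 to 7 in AGY1859, 5 to 9 in AGY1860, 7 to 12 in AGY1862 and 4 to 8 in AGY1863. It gave 2 in AGY1860 at generation 5 and 0 to 3 by the joint test. The joint count was 0 without any replicate of AGY1613, replicate 3 of AGY1859, or replicate 1 or 2 of AGY1860. It was 2 without replicate 2 of AGY1611, 1 of AGY1861, 2 of AGY1862 or 1 of AGY1863, and 3 without replicate 1 of AGY1862. ATP4 in AGY1862 ran from -0.04 (adjusted p = 0.97, without replicate 2) to 1.63. Depth limits CYT1, COX6 and CYC1, which began with the fewest counts.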
